A study of Mus musculus with 18 samples.

Results

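The genes described here encode enzymes that desaturate, elongate and activate long-chain fatty acids, polyunsaturated fatty acids among them. They were chosen by symbol, with earlier results of these data known. Every probe set of Elovl1, Elovl2, Elovl5, Fads1, Fads2, Scd2, Acsl1, Acsl3, Acsl4 and Acsl5 was taken from the array annotation. Of the 10 genes, 9 had at least 1 probe set, among 18193 genes with a probe set in all. These 9 genes had 22 probe sets, of which 21 passed the filter on dim signals. The annotation used here paired Acsl1 with no probe set, alone or beside other symbols, and left 9160 probe sets without a symbol, so Acsl1 was not analysed here.

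The 18 livers came from male mice of the inbred strain C57BL/6J, taken at 62 weeks of age, with 3 mice in each of 6 groups and 1 Affymetrix Mouse Genome 430 2.0 array per mouse. HF+CR mice ate a diet with 60% fat under 30% calorie restriction, HF+Ex mice ate it freely and had a running wheel, and HF mice ate it freely without one. LF+CR, LF+Ex and LF mice were kept in the same ways on a diet with 10% fat. All diets and interventions began at 5 weeks of age, and all mice lived alone in their cages. The design sets each intervention and the fat content of the food against liver transcripts, and asks whether an intervention acts alike on both diets.

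Mammals take linoleic and alpha-linolenic acid from food, and the liver lengthens and desaturates them into arachidonic acid, docosahexaenoic acid and related acids. Fads2 and Fads1 place the double bonds, while Elovl5 and Elovl2 run the rate-limiting condensation of each elongation cycle. Long-chain acyl-CoA synthetases of the Acsl family then, or beforehand, join a fatty acid to coenzyme A, without which it enters neither phospholipids, triglycerides nor oxidation.

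The 3 genes that rose in LF+CR livers, Acsl3, Acsl4 and Acsl5, are shown first by their promoters. Each window runs from 250 bases before to 50 bases after a RefSeq start site of the gene, is written 5′ to 3′ on the strand of the gene, and comes from RefSeq on build GRCm38.p6. Capitals mark CCAAT boxes (CCAAT) and GC boxes (GGGCGG), each searched on both strands. The Acsl3 window lies at chr1:78657575-78657874 on the plus strand, the Acsl4 window at chrX:142390486-142390785 on the minus strand and the Acsl5 window at chr19:55253119-55253418 on the plus strand. The start site used is the outer bound of the gene for Acsl3, but lies 267 bases inside the gene for Acsl4 and 1508 bases inside it for Acsl5.
Acsl3: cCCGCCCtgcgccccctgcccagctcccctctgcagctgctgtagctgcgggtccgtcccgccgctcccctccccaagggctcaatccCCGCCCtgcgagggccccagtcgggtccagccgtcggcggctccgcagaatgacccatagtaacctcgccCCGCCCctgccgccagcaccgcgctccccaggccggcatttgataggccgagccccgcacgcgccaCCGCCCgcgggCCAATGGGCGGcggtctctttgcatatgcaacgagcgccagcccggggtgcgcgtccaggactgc
Acsl4: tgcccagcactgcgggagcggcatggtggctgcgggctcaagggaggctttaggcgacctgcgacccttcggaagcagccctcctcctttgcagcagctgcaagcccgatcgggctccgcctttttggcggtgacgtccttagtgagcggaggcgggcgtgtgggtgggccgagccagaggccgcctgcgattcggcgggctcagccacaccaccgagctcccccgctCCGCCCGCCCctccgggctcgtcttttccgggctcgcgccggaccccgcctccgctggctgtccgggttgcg
Acsl5: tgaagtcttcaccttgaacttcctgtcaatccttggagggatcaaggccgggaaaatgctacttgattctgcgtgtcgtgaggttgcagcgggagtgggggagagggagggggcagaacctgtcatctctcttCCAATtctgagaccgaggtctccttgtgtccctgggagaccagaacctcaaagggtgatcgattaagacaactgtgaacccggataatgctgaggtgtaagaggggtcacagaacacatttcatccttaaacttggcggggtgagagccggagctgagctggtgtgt

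The 3 promoters differed in what they held. Acsl3 had 1 CCAAT box, starting 15 bases before the gene and followed directly by a GC box, with 5 GC boxes in all. Acsl4 had 2 GC boxes that overlap each other and no CCAAT box, and Acsl5 had 1 CCAAT box and no GC box. A window was at hand for 8 of the 10 genes (11 windows in all). A CCAAT box stood in 5 of the 11 windows and in 37.4% of 32851 mouse promoters of the same length, and a GC box in 7 of the 11 and in 35.7%. The sterol regulatory element TCACNCCAC was found in 1 of the 11 windows, of Acsl1 (1.24% of promoters), and the E-box CACGTG in 1, of Elovl5 (7.15%). These matches describe the letters in the windows.

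The arrays had means between 304.9 and 307.8 and carried all 10 hepatocyte markers on all 18 arrays. Each value is a linear probe set intensity, and a gene is given by its brightest probe set. Tests and fold changes used log2(intensity + 16), which understates the changes of dim genes. A gene was called where limma's adjusted p lay under 0.05 over 14201 genes. The dim threshold, the 40th percentile of an array, lay between 88.2 and 97.6. Some arrays stood apart from their groups. Colipase (Clps), a pancreatic transcript, read 215 to 599 on HF+Ex 1, LF+CR 1, LF+Ex 3 and LF 1, against 52.6 to 62.1 on the others. The first principal component set HF+Ex 3, HF 1 and LF+CR 2 apart from the rest. In whole liver, fewer cells of a type and less RNA per cell cannot be told apart.

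**Figure D1:**
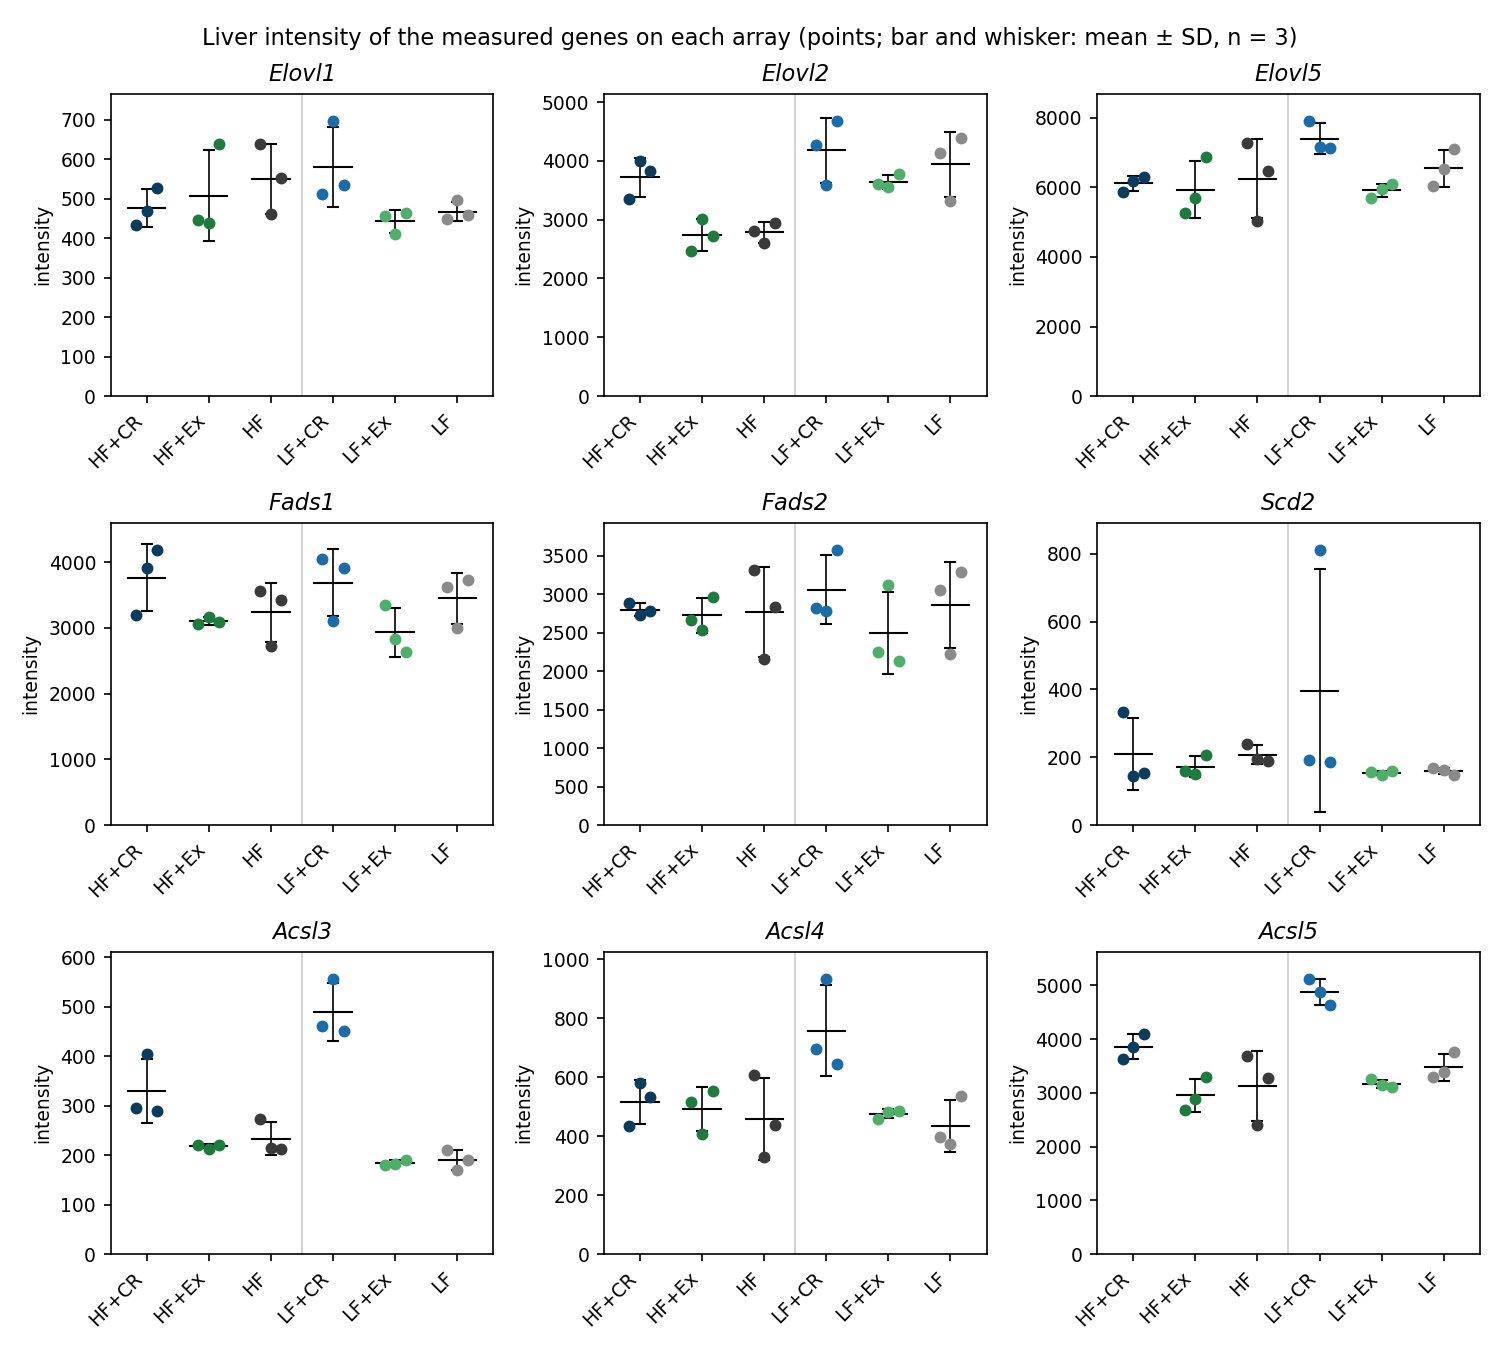
Intensity of each measured gene (vertical axes, linear and starting at 0) on each of the 18 arrays (points) by group (horizontal axes), with bar and whisker for the mean ± SD of 3 arrays. All 3 LF+CR arrays lay above all 15 others for Acsl3, Acsl4 and Acsl5, the HF and HF+Ex arrays were the 6 lowest for Elovl2, and 1 LF+CR array stood alone for Scd2.

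Calorie restriction on the low-fat diet raised 3 of the 9 genes, all of them acyl-CoA synthetases: Acsl3, Acsl4 and Acsl5. No member fell. Of all genes tested, 5.57% were called in this comparison, 2.3% as higher and 3.27% as lower. The log2 fold change was positive for all 9 members, with a median of 0.29, against a median of -0.01 over all genes. In 6 of the 9 genes the LF+CR and LF arrays did not overlap, as in 20.2% of all genes. Of 8 summed marker lists for liver and other cell types, 7 overlapped between LF+CR and LF. The exception was the hepatocyte sum, at 115721 to 117380 in LF+CR livers and 108406 to 112822 in LF livers, with 2 of 10 markers called higher, and its part in these results was not tested.

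On the high-fat diet, restriction raised 2 of the 9 genes, Acsl3 and Elovl2, an elongase. The background was 6.07% of genes called, with 3.52% called higher. The HF+CR and HF arrays did not overlap in 2 of the 9 genes, against 31.3% of all genes. The members had a median log2 fold change of 0.19, against 0.04 over all genes. The only member whose response to restriction differed between the diets by limma's interaction test was Acsl3, 1 of 9 where 5.75% of all genes were called and 2.39% were called in the same direction.

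Acsl3, an acyl-CoA synthetase of the endoplasmic reticulum and of lipid droplets, gave the clearest difference between groups. It read 296, 404 and 289 on the HF+CR arrays, 221, 213 and 221 on the HF+Ex arrays, and 272, 215 and 212 on the HF arrays. It read 460.2, 556 and 451 on the LF+CR arrays, 180.1, 181 and 191 on the LF+Ex arrays, and 211, 169 and 191 on the LF arrays. Restricted livers were highest on each diet, with no overlap with the other groups of that diet, and LF+CR lay above HF+CR without overlap. In LF+CR livers Acsl3 was 2.45 times the LF level (log2 1.29, SE 0.120, adjusted p = 1.81e-05) and 2.52 times the LF+Ex level (log2 1.33, adjusted p = 5.39e-06). In HF+CR livers it was 1.38 times the HF level (log2 0.46, SE 0.120, adjusted p = 0.0339) and 1.46 times the HF+Ex level (log2 0.55, adjusted p = 0.0244).

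The response of Acsl3 to restriction was smaller on the high-fat diet, by 0.83 on the log2 scale (interaction -0.83, SE 0.170, adjusted p = 0.0109). Between the restricted groups, HF+CR fell below LF+CR by 0.56 on the log2 scale (adjusted p = 0.00937). Without LF+CR 2, HF 1 and HF+Ex 3 the interaction was -0.62 with an adjusted p of 0.0674. The LF+CR rises over LF and over LF+Ex stayed called in all 32 alternative settings. The HF+CR rise over HF was not called without HF 2 (log2 0.42, adjusted p = 0.0916), without HF 3 (0.41, 0.111) or without HF+CR 2 (0.32, 0.141). The rise over HF+Ex was not called without any one of the HF+Ex arrays (adjusted p = 0.0816, 0.0521 and 0.0875) or without HF+CR 2 (log2 0.40, adjusted p = 0.105).

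The 3 Acsl3 probe sets differed from one another, and the brightest has the suffix s_at, which marks probes shared by several transcripts. 1428386_at read 153, 187 and 148 on the HF+CR arrays and 160.5, 124 and 113 on the HF arrays. It read 313, 361 and 306 on the LF+CR arrays and 106, 95.7 and 93.3 on the LF arrays. That probe set put the LF+CR arrays far above all others and the LF arrays near the dim threshold. Its log2 fold change was 1.58 in LF+CR over LF, and its interaction was -1.31 (adjusted p = 3.00e-04). The HF+CR rise over HF was called by the brightest probe set alone: it was 0.27 with 1428386_at (adjusted p = 0.16), whose HF+CR and HF arrays overlapped, and 0.17 with 1428387_at (adjusted p = 0.198). 1428387_at read only 94.0 to 131 over all 18 arrays, close to the dim threshold, and differed between LF+CR and LF by -0.0025 on the log2 scale (SE 0.0791).

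**Figure D2:**
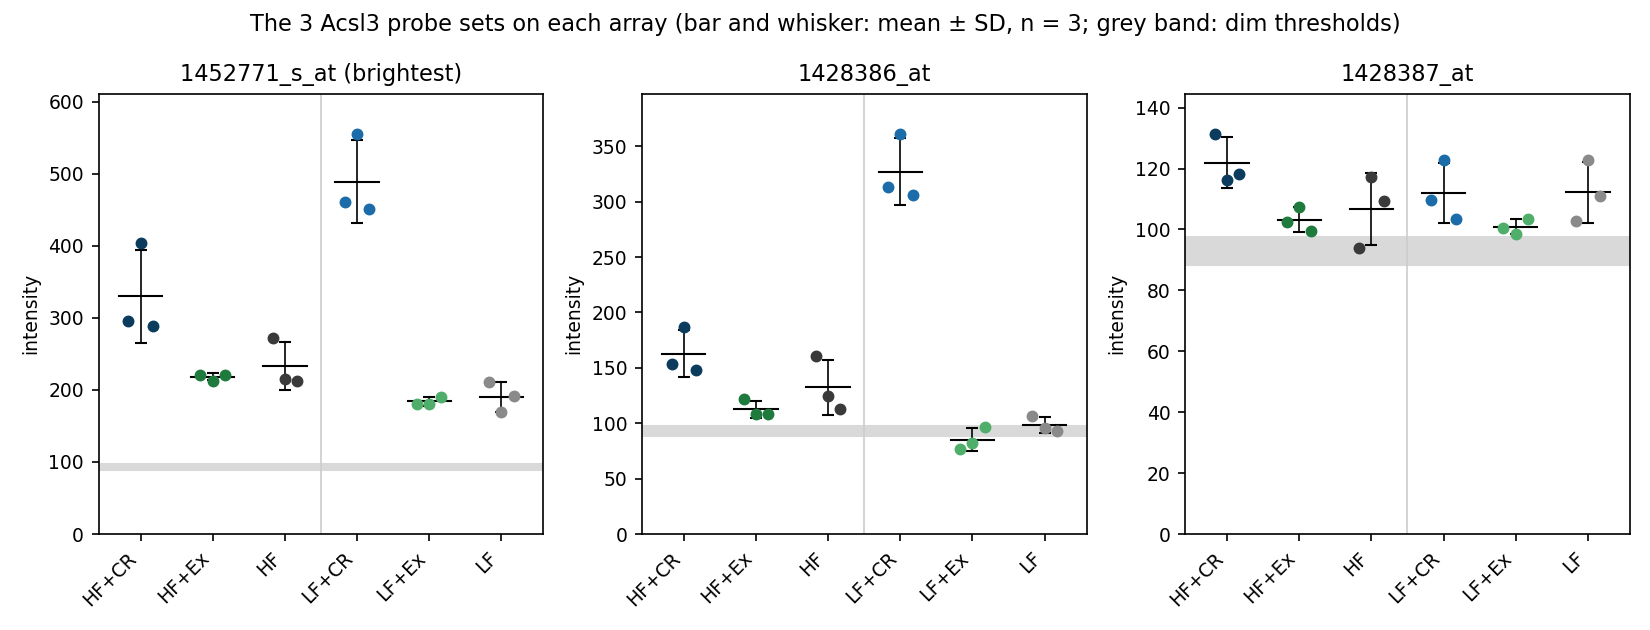
Intensity of the 3 Acsl3 probe sets (vertical axes, linear, of different height) on each array by group, with bar and whisker for the mean ± SD of 3 arrays and a grey band for the range of dim thresholds, 88.2 to 97.6. The first and second panels set the LF+CR arrays above all others, and the third, between 94.0 and 131, does not.

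Acsl4, an acyl-CoA synthetase that prefers arachidonic acid and is best known for supplying the phospholipids that are oxidised in ferroptosis, read 697, 934 and 646 on the LF+CR arrays, 458, 483 and 486 on the LF+Ex arrays, and 399, 372 and 535 on the LF arrays. The LF+CR arrays did not overlap the others, and LF+CR 2 was the highest of all 18. That array also had the highest sum of Kupffer cell markers, but not the highest value of every macrophage marker (given with Scd2). Acsl4 was 1.72 times the LF level in LF+CR livers (log2 0.78, SE 0.194, adjusted p = 0.0273). It read 433, 580.3 and 533 on the HF+CR arrays, 516, 407 and 552 on the HF+Ex arrays, and 607, 329.9 and 439.7 on the HF arrays. The 3 high-fat groups overlapped, and HF+CR over HF was 0.19 (SE 0.194, adjusted p = 0.544). The responses on the 2 diets differed by -0.58 (SE 0.275, adjusted p = 0.21), so that a difference in response was not shown for Acsl4. Between the restricted groups, HF+CR lay below LF+CR without overlap (log2 -0.54, adjusted p = 0.0999).

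The other Acsl4 probe sets gave log2 fold changes of 0.89 (adjusted p = 0.00770) and 0.82 (adjusted p = 0.00470) in LF+CR over LF, in a fit over all 29336 probe sets that passed the filter. In HF+CR over LF+CR, 1451828_a_at was called lower (log2 -0.64, adjusted p = 0.0155), and 1418911_s_at was at -0.54 (adjusted p = 0.073). With the brightest probe set, the call was lost without LF 1 (log2 0.73, adjusted p = 0.0901), LF 2 (0.68, 0.105), LF+CR 1 (0.83, 0.0588) or LF+CR 2 (0.62, 0.122). It was also lost without HF+Ex 3, HF 1 and LF+CR 2 together (0.62, 0.0501), without the 4 arrays with colipase (0.78, 0.194) and with the compared groups only (0.78, 0.0907). Against LF+Ex the LF+CR level of Acsl4 was higher by 0.64, with an adjusted p of 0.0507 for the brightest probe set and of 0.0193 and 0.0139 for the others. The brightest passed without LF 3, LF+CR 3, HF 1, HF 2, HF+Ex 2 or HF+CR 1 (adjusted p between 0.0263 and 0.0497). It also passed with quantile scaling (0.041), an offset of 64 (0.0488), the 60th percentile filter (0.0455) or the compared groups only (0.0439).

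Acsl5, an acyl-CoA synthetase of mitochondria and the endoplasmic reticulum that serves triglyceride synthesis in liver, was the brightest of the 3 synthetases. It read 5119, 4885 and 4636 on the LF+CR arrays, 3249, 3138 and 3117 on the LF+Ex arrays, and 3289.7, 3384 and 3766 on the LF arrays. The LF+CR arrays lay above all others and the LF+Ex arrays below the LF arrays. Acsl5 was 1.40 times the LF level in LF+CR livers (log2 0.49, SE 0.118, adjusted p = 0.0241) and 1.54 times the LF+Ex level (log2 0.62, adjusted p = 0.00353). The call over LF was lost without LF 1 (log2 0.45, adjusted p = 0.0845), LF 2 (0.47, 0.0754), LF+CR 1 (0.45, 0.0893) or LF+CR 2 (0.49, 0.0625), and without the 4 arrays with colipase (0.41, 0.238).

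On the high-fat diet Acsl5 read 3625, 3853 and 4093 on the HF+CR arrays, 2686, 2884 and 3295 on the HF+Ex arrays, and 3688, 2409.9 and 3278 on the HF arrays. HF+CR and HF overlapped by 1 HF array, and HF+CR over HF was 0.32 (SE 0.118, adjusted p = 0.112). That rise was called with array weights (0.34, adjusted p = 0.0412) and without HF+Ex 3, HF 1 and LF+CR 2 (0.45, adjusted p = 0.0389). HF 2 was the lowest of the 18 arrays for Acsl5, as it was for Acsl4 and Elovl5. The interaction of Acsl5 was -0.16 (SE 0.167, adjusted p = 0.565), which does not separate its responses on the 2 diets. Without HF 2, Acsl5 passed in HF+CR over HF+Ex (log2 0.39, adjusted p = 0.0217) and in HF+CR over LF+CR (log2 -0.34, adjusted p = 0.0184), where it missed the threshold with all arrays (0.0919 and 0.0889). Array weights also called both (log2 0.45, adjusted p = 0.0232, and log2 -0.35, adjusted p = 0.0418).

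**Figure D3:**
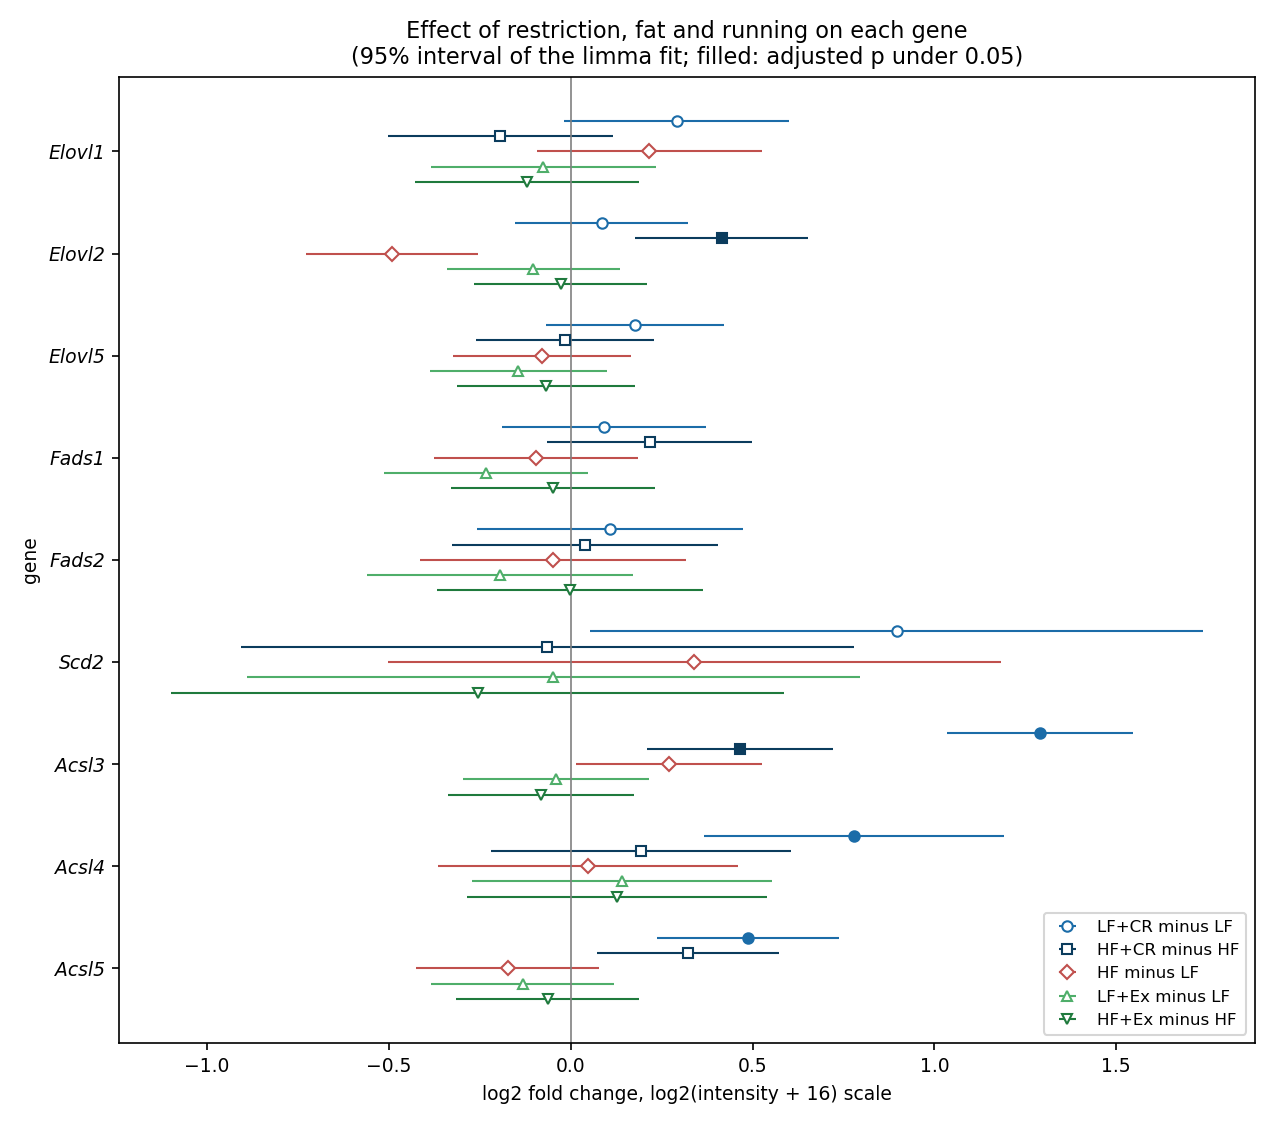
Log2 fold changes of the 9 genes (rows) in 5 comparisons on the log2(intensity + 16) scale, with the 95% interval of the limma fit and filled symbols for adjusted p under 0.05. The 5 filled symbols are Acsl3, Acsl4 and Acsl5 in LF+CR over LF, and Acsl3 and Elovl2 in HF+CR over HF.

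Elovl2 elongates the longest polyunsaturated acids on the way to docosahexaenoic acid. It was the only one of the 3 member elongases called with its brightest probe set and all arrays at equal weight. It read 3355, 3993 and 3819 on the HF+CR arrays, 2473, 3009.7 and 2721 on the HF+Ex arrays, and 2800.5, 2603 and 2946 on the HF arrays. It read 4277, 3581 and 4677 on the LF+CR arrays, 3613, 3547 and 3774 on the LF+Ex arrays, and 4127, 3320.4 and 4379.8 on the LF arrays. The HF and HF+Ex arrays were the 6 lowest of the 18, and HF+CR overlapped all 3 low-fat groups. In HF+CR livers Elovl2 was 1.33 times the HF level (log2 0.42, SE 0.112, adjusted p = 0.0409), and it was higher than in HF+Ex livers by 0.44 (adjusted p = 0.046).

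Without an intervention, Elovl2 averaged 2783 ± 172 in HF livers and 3942 ± 553 in LF livers (SD, n = 3 each), without overlap. The log2 fold change was -0.49 (SE 0.112), with an adjusted p of 0.051 that missed the threshold, and HF+Ex over LF+Ex was -0.42 (adjusted p = 0.0718). HF over LF was called without LF 2 (log2 -0.61, adjusted p = 0.026), LF+CR 2 (-0.49, 0.0244) or LF+CR 3 (-0.49, 0.043), and HF+Ex over LF+Ex without LF 2 (-0.42, 0.0422) or LF+CR 2 (-0.42, 0.0396). The rise in HF+CR over HF was lost without any one of the HF arrays (adjusted p = 0.125, 0.104 and 0.0684), without HF+CR 2 (0.144) or HF+CR 3 (0.0763), without LF+Ex 1 (0.0537) or LF+CR 1 (0.0508), and without HF+Ex 3, HF 1 and LF+CR 2 together (0.0726). Without single arrays, the rise over HF+Ex was kept only when LF 2, LF 3, LF+CR 2, LF+CR 3 or HF+Ex 2 was the one left out. It was lost in 19 of 32 settings, with adjusted p between 0.00524 and 0.233 over all of them.

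The HF+CR arrays also differed from the HF arrays in summed markers of other cells, without overlap in 6 of 8 lists. Of all single genes, 31.3% did not overlap between these groups, and a sum gives bright markers the most weight. The summed intensity of 7 pancreatic acinar markers was 2042 to 2600.4 in HF+CR livers and 1131 to 1164 in HF livers. Limma called 1 of the 7 higher, and colipase was below the dim threshold on all 6 arrays. The sum of 5 cholangiocyte markers was 482 to 953 in HF+CR livers and 437 to 470.4 in HF livers, with 0 of 3 tested called. The other 4 sums were lower in HF+CR. That of 8 Kupffer cell markers was 4528 to 5363 in HF+CR livers and 5823 to 9125 in HF livers, with 0 of 8 called by limma. That of 6 sinusoidal endothelial markers was 3325 to 3545 in HF+CR livers and 3709 to 3962 in HF livers, with 2 of 6 called lower. That of 6 stellate cell markers was 4204 to 4492 in HF+CR livers and 4538 to 4995 in HF livers, with 0 of 6 called. That of 4 adipocyte markers was 553 to 599.8 in HF+CR livers and 828 to 1257 in HF livers, with 0 of 2 tested called. Most of this sum was lipoprotein lipase (Lpl), which averaged 320 ± 33.8 in HF+CR livers and 761 ± 245 in HF livers. Adiponectin was below the dim threshold on all 6 arrays. The part of these markers in the HF+CR results of Acsl3 and Elovl2 was not tested.

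Elovl5, which elongates polyunsaturated acids of intermediate length, was the brightest member, with 5034 to 7910 over the 18 arrays. It averaged 7401 ± 441 in LF+CR livers and 6548 ± 534 in LF livers, where the arrays did not overlap (log2 0.18, SE 0.115, adjusted p = 0.469). Its level in LF+CR livers exceeded that in LF+Ex livers, 5915 ± 191, by 0.32 (adjusted p = 0.0947), and by 0.40 with its other probe set (adjusted p = 0.0448). The brightest passed without HF 2 (log2 0.32, adjusted p = 0.0393). In HF+CR livers it averaged 6118 ± 223, and in HF livers 6256 ± 1133. Elovl1, which elongates saturated and monounsaturated acids to very long chains, averaged 581 ± 101 in LF+CR livers and 468 ± 25.3 in LF livers (log2 0.29, SE 0.145, adjusted p = 0.306). It averaged 476 ± 47.2 in HF+CR livers and 549.9 ± 88.4 in HF livers (log2 -0.19, adjusted p = 0.412), and its interaction was -0.48 (SE 0.206, adjusted p = 0.169). With all arrays at equal weight, neither gene passed in any of the 9 comparisons of groups with its brightest probe set. Array weights called Elovl5 in LF+CR over LF+Ex (log2 0.38, adjusted p = 0.0155).

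The desaturases passed no test with their brightest probe sets and all arrays at equal weight. With array weights, Fads1 was called in LF+CR over LF+Ex (log2 0.34, adjusted p = 0.041). Fads2, which opens the conversion of linoleic acid, averaged 2797 ± 80.9 in HF+CR livers, 2722 ± 223 in HF+Ex livers and 2764 ± 586 in HF livers. It averaged 3058 ± 446 in LF+CR livers, 2497 ± 535 in LF+Ex livers and 2856 ± 559 in LF livers. All neighbouring groups in the order of these means overlapped. The log2 fold change of Fads2 in LF+CR over LF was 0.11, with a 95% interval from -0.26 to 0.47, and in HF+CR over HF it was 0.04.

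Fads1, which places the last double bond of arachidonic acid, averaged 3761 ± 511 in HF+CR livers, 3106 ± 56.8 in HF+Ex livers and 3236 ± 450.5 in HF livers. It averaged 3687 ± 508 in LF+CR livers, 2935 ± 370.2 in LF+Ex livers and 3449.7 ± 389 in LF livers. HF+CR lay above HF+Ex without overlap (log2 0.27, adjusted p = 0.243), LF+CR and LF overlapped, and LF+CR over LF was 0.09 (95% interval -0.19 to 0.37). A second Fads1 probe set, 1440444_at, read 305, 195 and 407 on the LF+CR arrays, and 149, 140.4 and 216 on the LF arrays. Its log2 fold change was 0.75 (adjusted p = 0.0314) although 1 LF array exceeded 1 LF+CR array, and LF+CR over LF+Ex was 0.95 (adjusted p = 0.00536). It was far dimmer than the main Fads1 probe set, with 124 to 407 against 2631 to 4186, and correlated with it by r = 0.68 over the 18 arrays.

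Scd2, a stearoyl-CoA desaturase that is sparse in adult mouse liver, had its largest values on single arrays. It read 334, 146 and 153 on the HF+CR arrays, 158, 150.03 and 207 on the HF+Ex arrays, and 239, 194 and 189 on the HF arrays. It read 193, 811 and 186 on the LF+CR arrays, 156, 147 and 159 on the LF+Ex arrays, and 167, 163 and 149 on the LF arrays. LF+CR 2 and HF+CR 1 stood apart, and the other 16 arrays read 146 to 239. The HF arrays and the LF+CR arrays each lay above the LF arrays without overlap. Of all genes, 22.6% and 20.2% did not overlap in these comparisons, and limma called neither difference for Scd2. In LF+CR over LF the log2 fold change was 0.90 (SE 0.397, adjusted p = 0.235), and 0.23 without LF+CR 2 (adjusted p = 0.788). Its interaction was -0.96 with all arrays and -0.29 without LF+CR 2. The dimmest Scd2 probe set exceeded the dim threshold on 1 array.

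Markers of other cells were high on the same arrays, in part different ones on each. LF+CR 2 had the highest lipoprotein lipase (Lpl, 1787 against 261 to 1050.2 elsewhere), the highest Marco, a macrophage receptor (785), the highest Sox9, a bile duct transcription factor (275), and the highest Kupffer cell sum of 8 markers (10154). Its sum of 4 adipocyte markers was 2018, against 593 and 637 on the other LF+CR arrays. Lpl is 1 of the 4 and read 355 and 408 on those arrays, so that sum largely repeats Lpl. Of the others, adiponectin (Adipoq, 51.2) and leptin (Lep, at most 60.9 on any array) were below the dim threshold on LF+CR 2. Cd68, another macrophage marker, read 370 on LF+CR 2, below 444 on HF 1 and 379 on HF+Ex 3. HF+CR 1 had 399 for keratin 19 (Krt19), a bile duct marker, which read 82.8 to 106 elsewhere. Its sum of 5 cholangiocyte markers was 953, against 482 and 500.4 on the other HF+CR arrays. HF+CR 1 read 190 for Sox9 but 287 for Lpl. HF 1 and HF+Ex 3 read 1040 and 1050.2 for Lpl, with Scd2 at 239 and 207. LF+CR 2 was the highest array for 4 members, Scd2, Acsl3, Acsl4 and Elovl1. Without it, LF+CR over LF was 1.20 for Acsl3 (adjusted p = 1.37e-04), which stayed called, 0.62 for Acsl4 (adjusted p = 0.122) and 0.16 for Elovl1 (adjusted p = 0.745). The part of these markers in the values of the 4 genes was not tested.

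**Figure D4:**
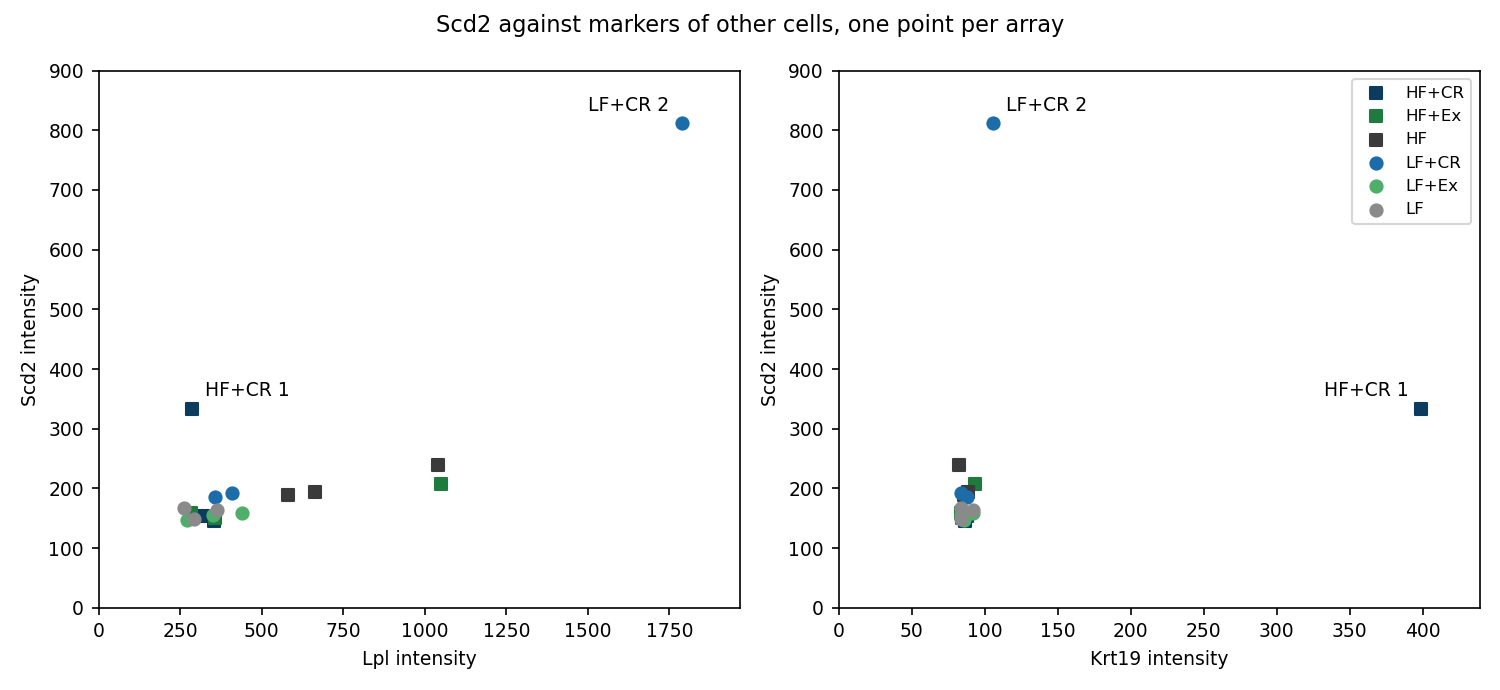
Scd2 intensity (vertical axes) against the intensity of Lpl (left) and Krt19 (right) on each of the 18 arrays, all axes linear and starting at 0. LF+CR 2 stands alone at 811 for Scd2 and 1787 for Lpl, and HF+CR 1 at 334 for Scd2 and 399 for Krt19. HF+CR 1 reads 287 for Lpl, and LF+CR 2 reads 106 for Krt19.

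Running alone gave no call among the members, and no member reached an unadjusted limma p under 0.05 with running on either diet. In LF+Ex over LF, 0 of 9 genes were called, where 0.00704% of all genes were (1 gene), and the log2 fold changes had a median of -0.10 and were negative in 8 of 9. In HF+Ex over HF, 0 of 9 were called, where limma called 0% of all genes (348 had an unadjusted p under 0.05), and the median was -0.06. The LF+Ex and LF arrays did not overlap for 1 member, Acsl5, as for 8.82% of all genes. For Acsl3 the 95% interval of the log2 fold change with running was -0.30 to 0.22 on the low-fat diet and -0.34 to 0.17 on the high-fat diet. LF+CR and LF+Ex differed in 2 members, Acsl3 and Acsl5, both higher in LF+CR (9.31% of genes called, 4.16% as higher). HF+CR and HF+Ex differed in 2, Acsl3 and Elovl2, both higher in HF+CR (2.71%, and 1.4% as higher). These comparisons share the restricted arrays with those against LF and HF.

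Dietary fat gave no call among the members in mice without an intervention (0 of 9 by limma, where 0.894% of genes were called), while 2, Elovl2 and Acsl3, had an unadjusted p under 0.05. The HF and LF arrays did not overlap for 3 members, Elovl2, Scd2 and Acsl3, as for 22.6% of all genes. Under restriction HF+CR fell below LF+CR in 1 member, Acsl3 (8.93% of genes called, 3.31% as lower), and 8 of the 9 log2 fold changes were negative, with a median of -0.27 against 0.03 over all genes. In runners, HF+Ex against LF+Ex gave 0 calls by limma (1.75% of genes), with 1 member, Elovl2, at an unadjusted p under 0.05. The interaction of running with fat gave 0 of 9 (0.00704%), with 0 at an unadjusted p under 0.05.

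Taken by probe set, 7 of 21 were called in LF+CR over LF, all higher, where 4.83% of 29336 probe sets were called. They were 2 of Acsl3, 3 of Acsl4, the only one of Acsl5 and 1 of Fads1, and probe sets of a gene are not independent. In HF+CR over HF, 2 of 21 were called (5.07%), and in LF+CR over LF+Ex, 7 of 21 (8.35%). The interaction called 2 probe sets, both of Acsl3, as lower on the high-fat diet (5.07%).

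**Figure D5:**
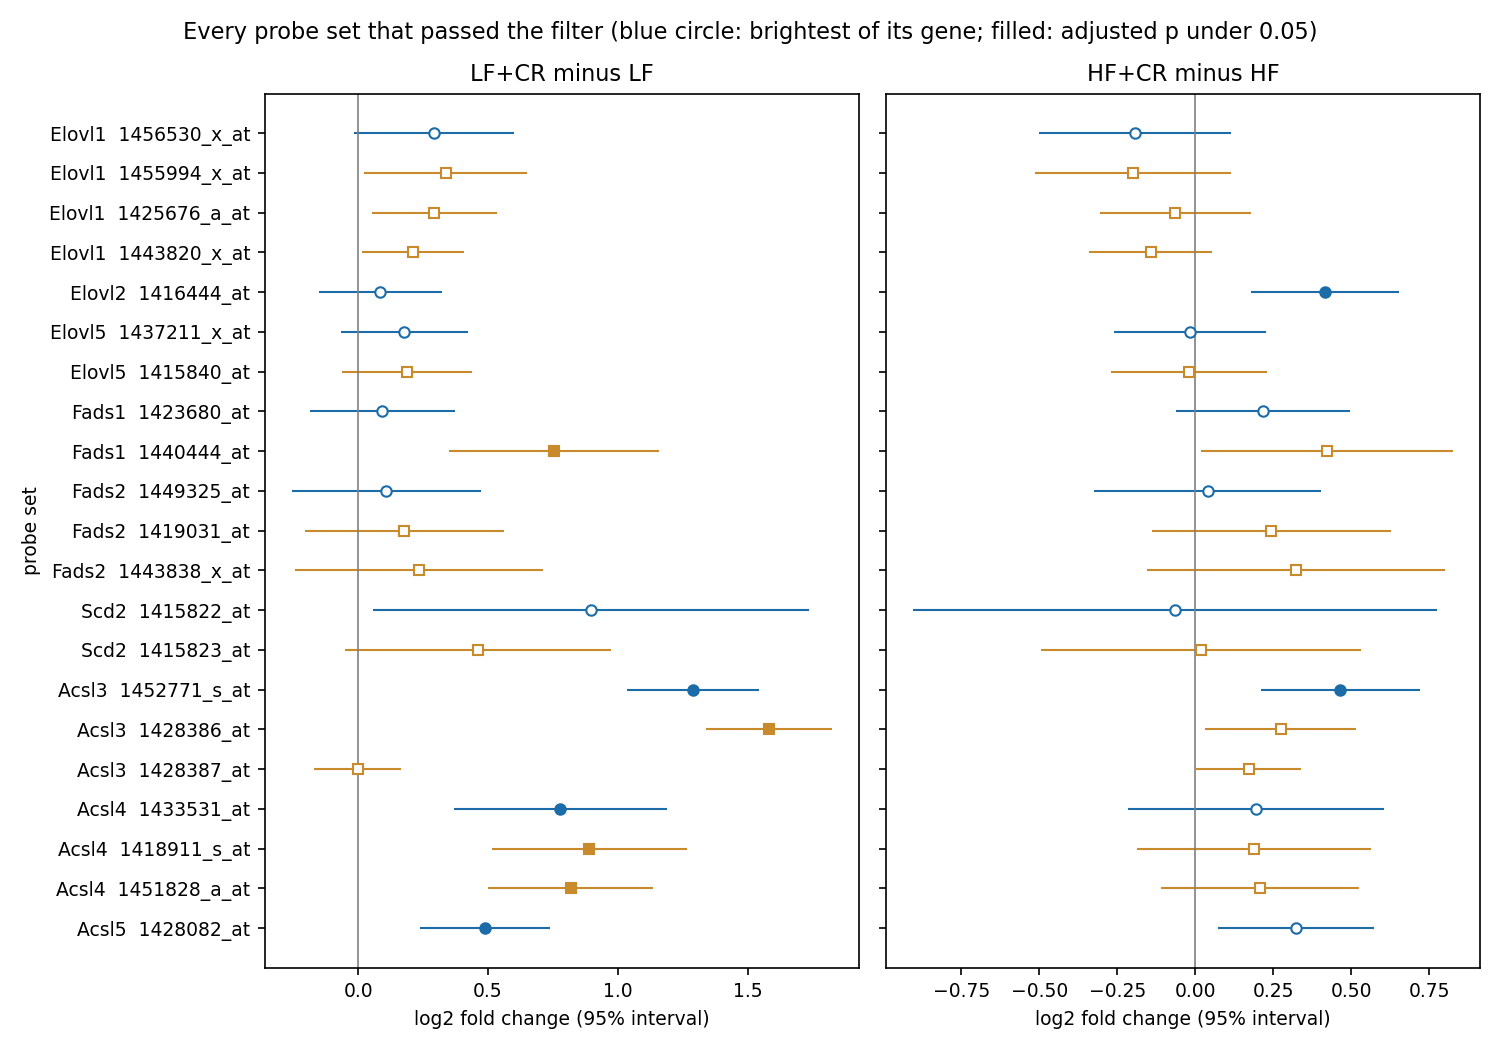
Log2 fold changes of the 21 probe sets that passed the filter (rows), LF+CR minus LF on the left and HF+CR minus HF on the right, with 95% intervals. Blue circles are the brightest probe set of a gene, ochre squares the others, and filled symbols have an adjusted p under 0.05. All 3 Acsl4 probe sets are filled on the left, and 1428387_at of Acsl3 lies at -0.0025.

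Among enzymes that neighbour the members, the elongation genes split. For this and the following lists, the shares of all genes called were 5.57% in LF+CR over LF, 6.07% in HF+CR over HF and 0.894% in HF over LF. Of 9 tested genes for saturated and very long chain elongation, 2 rose and 2 fell in LF+CR over LF, and limma called 0 in HF+CR over HF (1 at an unadjusted p under 0.05) and 0 in HF over LF (2 at an unadjusted p under 0.05). Elovl6, which lengthens palmitate, averaged 2421 ± 904 in LF+CR livers and 656 ± 186 in LF livers (log2 1.83, SE 0.264, adjusted p = 6.71e-04). Elovl3, an elongase of saturated acids, averaged 188 ± 113 in LF+CR livers and 2847 ± 384 in LF livers (log2 -3.98, SE 0.465, adjusted p = 1.37e-04). Hacd1, a dehydratase of the elongation cycle, fell by 0.57 on the log2 scale. Of 8 other desaturases and electron donors, limma called 0 in these 3 comparisons, with 2 in LF+CR over LF, 2 in HF+CR over HF and 1 in HF over LF at an unadjusted p under 0.05.

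Other genes of fatty acid activation went both ways. Of 20 other acyl-CoA synthetases and thioesterases, 2 rose and 5 fell in LF+CR over LF, and 1 rose and 4 fell in HF+CR over HF. Acss2, which makes acetyl-CoA from acetate, rose on both diets, by 1.65 (adjusted p = 4.70e-04) and 0.96 (adjusted p = 0.0213). The thioesterases Acot3 and Acot4, which split acyl-CoA again in peroxisomes, fell in HF+CR livers by 1.79 and 0.88 on the log2 scale. Acot1 and the fatty acid transporter Slc27a1 fell in LF+CR livers by 1.41 and 0.54 on the log2 scale. The Acot genes are close paralogs, as are Acaa1a and Acaa1b, and their probe sets can share sequence.

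Of 13 genes for the peroxisomal shortening of polyunsaturated acids, 3 fell on the low-fat diet (Eci2, Acaa1a, Amacr) and 3 others on the high-fat diet (Abcd2, Acaa1b, Hsd17b4), each under restriction. They lay between -0.53 and -0.31 on the log2 scale. Of 16 genes of phospholipid remodelling, acyltransferases and phospholipases among them, 3 fell in LF+CR over LF (Lpgat1, Pla2g12a and Mboat7). In HF+CR over HF, 1 rose and 1 fell. Lpgat1, an acyltransferase of phospholipid remodelling, fell on both diets, by 0.63 and 0.39 on the log2 scale. Agpat4, an acyltransferase, rose in HF+CR livers by 0.50. Of 20 enzymes that turn polyunsaturated acids into eicosanoids and other oxylipins, 1 fell in LF+CR over LF. It was Ephx2, the soluble epoxide hydrolase, at 4476 ± 239 in LF+CR livers and 5915 ± 260 in LF livers (log2 -0.40, adjusted p = 0.00115).

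Among 16 genes that regulate desaturases and elongases, 4 rose and 1 fell in LF+CR over LF. Srebf1, which encodes a transcription factor that drives fatty acid synthesis and desaturase genes, averaged 1872 ± 362 in LF+CR livers and 794 ± 185 in LF livers (log2 1.23, adjusted p = 0.00142). Insig1, its retention factor in the endoplasmic reticulum, rose by 0.84 (adjusted p = 2.14e-04), and Mlxipl, which encodes the carbohydrate response factor ChREBP, fell by 0.67 on the log2 scale (adjusted p = 0.0442). In HF+CR over HF, Srebf1 was at 0.54 (adjusted p = 0.109), and Pparg, a lipid storage receptor, fell by 1.11 on the log2 scale (adjusted p = 0.00206). In HF over LF, Insig1 and Pparg rose by 0.48 and 0.91. Nr1h3 and Ppara, which encode a liver X receptor and a fatty acid receptor, passed in none of these 3 comparisons.

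Genes with the most similar profiles over the 18 arrays are given as a description, since arrays of a group share their diet. For Acsl3 they were Acly (r = 0.95), Rdh11 (0.95) and Slc25a1 (0.94), and for Acsl5 they were Acss2 (0.92), Pmvk (0.91) and Rdh11 (0.91). For Acsl4 they were Cycs (0.92), Cct7 (0.89) and Gca (0.89), and for Elovl2 Miga1 (0.90), Gorasp1 (0.89) and Cpn1 (0.88). The mean of Gca lay below the highest dim threshold, 97.6, in every group but LF+CR, and that of Miga1 in HF and HF+Ex livers. Among the 36 pairs of members, once group means had been taken off, r was positive for 31 and highest for Elovl5 and Acsl5 (0.95). Acsl3, Acsl4 and Acsl5 correlated with each other by 0.78, 0.79 and 0.80 over all arrays, and by 0.66 (Acsl3 and Acsl4), 0.26 (Acsl3 and Acsl5) and 0.73 (Acsl4 and Acsl5) within groups.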

How the data were processed

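The authors deposited 1 linear intensity for each probe set and array. Per the labels' protocols, Trizol was used for total RNA and the label was biotin on cRNA. How the authors summarised and scaled the arrays is not given in the sources used here. Values ran from 31.1 to 21654 over 45101 probe sets. The log2 medians of the arrays spanned 0.15, below the limit of 0.2 for centring, and values were used as deposited.

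Of 45037 probe sets other than controls, 34945 carried 1 gene symbol, and the 932 with several symbols and 9160 with none were not used. A gene took its brightest probe set, by mean log2(intensity + 16), and tested if above the 40th percentile of an array on at least 3 arrays (14201 genes tested, 3992 dim). Limma 3.58.1 in R 4.3.3 fitted 1 mean per group to all 18 arrays (12 residual and 3.64 prior degrees of freedom), for 9 comparisons of groups and 2 interactions. P-values were adjusted by Benjamini-Hochberg over all genes tested. A second fit covered all 29336 probe sets that passed. Precision is limited by how far a probe set stands above background and by 3 arrays per group.

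Each array came from another mouse. Replicate numbers did not pair the arrays: deviations from the group means correlated by a median of -0.05 over 45 same-numbered pairs, 9 of them over 0.1. The members and gene lists were chosen with earlier results of these data known. Named list genes are those with up to 3 largest called changes per list in LF+CR over LF, HF+CR over HF and HF over LF, besides fixed regulators. The alternatives were quantile and median scaling, offsets of 1 and 64, other dim filters, the mean of a gene's probe sets, a robust trend, array weights, a clock covariate (log2 Arntl minus log2 Dbp), a replicate block, the compared groups only, and fits without single arrays, without the 4 arrays with colipase or without 3 arrays that the first principal component set apart. The fit was tested on simulated data.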

Additional observations from a re-analysis of the deposited data

Results flagged for a closer look

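The response to restriction differed between the diets by limma's interaction test for 15 of the genes named above, 1 member and 14 others. Of all genes tested, 5.75% were called by that test. Many of the named genes were picked for called changes in comparisons that enter the interaction, so 15 cannot be set against that share. Values are the log2 change in HF+CR over HF minus that in LF+CR over LF. Acsl3 was the only member, at -0.83 (adjusted p = 0.0109). Of the others, the elongases gave 5.44 for Elovl3 and -1.87 for Elovl6. Elovl3 averaged 2889 ± 1043 in HF+CR livers and 1064 ± 483 in HF livers, but 188 ± 113 in LF+CR livers and 2847 ± 384 in LF livers. Activation genes gave 0.78 for Slc27a1 and -0.85 for Acot4, and peroxisomal genes gave 0.49 for Eci2, 0.57 for Amacr and -0.89 for Abcd2. Pla2g12a, a phospholipase gene, gave 0.43 and Ephx2 gave 0.48. Among regulators, Insig1 gave -0.78, Mlxipl 1.12 and Pparg -1.65. Pparg averaged 190 ± 47.9 in HF+CR livers and 422 ± 48.3 in HF livers, but 326 ± 69.1 in LF+CR livers and 217 ± 15.8 in LF livers. Among the genes with profiles like those of members, Acly gave -1.16 and Gca -0.59. Gca averaged 116 ± 16.7 in LF+CR livers but only 72.5 to 80.4 in the other groups, below the dim threshold of every array. Of all 102 genes tested in the neighbouring lists, 17 were called, where 5.75% of all genes were. These lists were chosen with earlier results of these data known, so 17 cannot be set against that share either. The 5 not given values here were Acot13, Acsm1, Cyp4f14, Degs1 and Slc27a2, named after their values were seen.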

How the results depend on the processing

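Over 32 settings each, Acsl3 kept its rise in LF+CR over LF (log2 0.96 to 1.40) and over LF+Ex (1.07 to 1.40). Its dim probe set 1428387_at gave -0.0025 in LF+CR over LF, 0.11 in HF+CR over LF+CR and 0.17 for the interaction, against 1.29, -0.56 and -0.83. The cause was not tested. Without the 4 arrays with colipase, fewer arrays were fitted, and members called were 1 in LF+CR over LF, 0 in HF+CR over HF, 1 in LF+CR over LF+Ex and 0 in HF+CR over HF+Ex. Centring each array on its median left 0 in HF+CR over HF and 0 in HF+CR over HF+Ex. The replicate block left 1 in each of those (Acsl3 lost over HF with an adjusted p of 0.0506, Elovl2 lost over HF+Ex with 0.0519) and changed the count of no other comparison. Fitting the compared groups only left 2 in LF+CR over LF (Acsl4 lost, adjusted p = 0.0907), 1 in HF+CR over HF (Acsl3 lost, 0.104), 0 in HF+CR over HF+Ex and 0 in HF+CR over LF+CR. Without HF+Ex 3, HF 1 and LF+CR 2, 2 were called in LF+CR over LF (Acsl4 lost, adjusted p = 0.0501) and 2 in HF+CR over HF (Elovl2 lost, 0.0726, and Acsl5 gained, 0.0389), while 1 was called in HF+CR over HF+Ex and 0 in the interaction. No filter left 1 in HF+CR over HF+Ex. HF over LF called 1 gene, Elovl2, with an offset of 64, the 60th percentile filter, a robust trend, array weights or the clock covariate. Array weights also gave 3 in HF+CR over HF and 3 in HF+CR over HF+Ex (Acsl5 gained in both, adjusted p = 0.0412 and 0.0232). They gave 5 in LF+CR over LF+Ex (Acsl4, Elovl5 and Fads1 gained), 2 in HF+CR over LF+CR and 1 in HF+Ex over LF+Ex. The mean of probe sets gave 4 in LF+CR over LF+Ex and 2 in HF+CR over LF+CR. Acsl4 was also gained in LF+CR over LF+Ex with quantile scaling, an offset of 64, the 60th percentile filter or the compared groups only. Leaving out each array in turn gave 1 to 3 members in LF+CR over LF, 0 to 2 in HF+CR over HF, 0 to 1 in HF over LF, 2 to 4 in LF+CR over LF+Ex, 0 to 2 in HF+CR over HF+Ex, 1 to 2 in HF+CR over LF+CR and 0 to 1 in HF+Ex over LF+Ex. Numbers of all genes called moved as well. LF+CR over LF gave 189 with the compared groups only and 1435 with array weights, against 791, and HF+CR over HF gave 2174 with array weights, against 862. Dim probe sets near the threshold, and 3 arrays in a group, limit what could be detected.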
